A study of Mus musculus with 6 samples.

Results

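Genes of fatty acid uptake and lipoprotein lipolysis, 10 in number, were followed in kidneys of 24-month-old mice: Cd36, Fabp1, Fabp3, Fabp4, Fabp5, Lpl, Gpihbp1, Angptl4, Slc27a1 and Slc27a2. They were chosen by symbol, with earlier results of these data known. All 10 were listed among the 13696 protein-coding genes of the deposited tables, and all 10 passed the filter on low values. Of the 6 kidney libraries, 3 are labelled fat-1 knockin (fat-1 here) and 3 WT. The fat-1 gene comes from a nematode and encodes a desaturase that makes omega-3 from omega-6 fatty acids, and by its design the study asks about its effects in the kidney of old mice. The promoter that drives fat-1, the strain, sex, feeding state and collection time are not given in the labels used here, nor whether each library is a separate animal, so p-values measure only the spread between these samples. The inserted gene was not analysed here, so genotype rests on the labels alone.

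Circulating triglyceride reaches tissue cells in steps. Lipoprotein lipase, the product of Lpl, splits the triglyceride of lipoproteins at the capillary wall, GPIHBP1 on endothelial cells carries the enzyme to the lumen and holds it there, and ANGPTL4 is a secreted inhibitor of the enzyme. Released fatty acids cross membranes with the help of CD36 and the FATP proteins of the Slc27a genes, and the FABP proteins carry them inside the cell. Proximal tubule cells burn mainly fatty acids, and several of these genes are known targets of the PPAR nuclear receptors, which sense fatty acids.

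The 10 genes were set in groups by where they are best known: Gpihbp1, Fabp4, Cd36 and Fabp5 with the endothelium, Slc27a2, Fabp1 and Fabp3 with the tubule, and Lpl, Angptl4 and Slc27a1 in several cell types. For Fabp3 the tubular site is best known in the rat, and Cd36, Fabp4 and Fabp5 are also made by macrophages or adipocytes. The place of Cd36 is the least sure, and it was also counted with the tubular members. Which cells made the RNA of each gene was not tested in these bulk libraries. Values are FPKM (read fragments scaled to transcript length and library size), summed over the listed transcripts of a gene. Each difference is the fat-1 mean minus the WT mean of log2(FPKM + 1), a scale which understates those of low genes.

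Promoter sequence was at hand for 5 of the 10 genes, in the RefSeq table for GRCm38.p6. It is shown where enough bases lay before the nearby listed starts: 198 for Fabp1, and 250 each for Slc27a1 and Cd36. For Fabp3 107 bases were left, and for Slc27a2 and the other Slc27a1 promoters 0, so these are not shown. PPAR receptors bind, with RXR, to a direct repeat called DR1, searched here as AGGNCA, any 1 base and AGGNCA again, on both strands in the 250 bases before each start site. Of 32851 promoters, 0.338% held a match. Capitals mark it below. The sequences stop at the RefSeq start site or, for Fabp1, where a listed transcript begins before that site. Among the 7 promoters of these 5 genes it was found in that of Fabp1 alone, beginning 67 bases before the RefSeq start site.
Fabp1, chr6:71199629-71199826, plus strand: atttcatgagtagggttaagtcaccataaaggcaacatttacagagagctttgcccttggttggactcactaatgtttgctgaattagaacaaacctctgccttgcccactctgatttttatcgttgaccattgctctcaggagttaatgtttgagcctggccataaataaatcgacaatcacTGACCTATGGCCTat
Slc27a1, chr8:71568621-71568870, plus strand: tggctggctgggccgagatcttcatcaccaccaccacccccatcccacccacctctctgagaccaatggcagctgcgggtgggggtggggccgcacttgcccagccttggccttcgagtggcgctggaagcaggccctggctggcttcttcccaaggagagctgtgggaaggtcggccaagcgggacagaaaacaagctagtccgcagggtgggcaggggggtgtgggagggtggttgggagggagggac
Cd36, chr5:17835897-17836146, minus strand: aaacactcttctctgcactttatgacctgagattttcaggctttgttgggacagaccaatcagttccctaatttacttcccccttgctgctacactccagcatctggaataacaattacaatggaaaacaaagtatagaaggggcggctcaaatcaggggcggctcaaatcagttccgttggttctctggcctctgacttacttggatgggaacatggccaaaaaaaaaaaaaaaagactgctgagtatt
A match of letters is a description and not a binding site.

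Kidney markers were found in every library, with 12 proximal tubule markers of the S1 and S2 segments summing to 2738 to 4130 FPKM in fat-1 and 3185 to 3884 FPKM in WT. Summed FPKM over all genes lay between 387488 and 431081, and mitochondrially encoded genes took 12.1% to 16.7% of it. Single libraries stood apart in markers of other tissues or of immune cells, in lists of which all but the macrophage list were chosen after the values were seen; the origin of this RNA was not tested. WT replicate 3 held intestinal markers at 203 FPKM in sum (4.02 or less elsewhere), among them the intestinal relative Fabp2 at 32.4 FPKM. WT replicate 2 held cardiac muscle markers at 93.0 FPKM (5.77 or less elsewhere). WT replicate 1 held interferon-induced and T cell genes at 963 FPKM (40.2 or less elsewhere) and macrophage markers at 897 FPKM (224 or less elsewhere). Urothelial markers summed to 93.0 FPKM in fat-1 replicate 3 and to 2.15 or less in the other libraries.

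No member passed the test over all genes. The test was limma with Benjamini-Hochberg adjustment, by which 0 of the 10 had an adjusted p under 0.05, and 0.18% of the 11698 genes tested did (14 higher and 7 lower). At an unadjusted p under 0.05, 6 of the 10 members stood out in either direction, against 9.97% of all genes. Of these, 5 were higher in fat-1, against 5.8% of all genes, and 1 was lower, against 4.16%. For 5 members, Fabp1, Fabp4, Gpihbp1, Angptl4 and Slc27a1, every fat-1 library lay above every WT library, an arrangement that 8.33% of all genes showed. For 1 member, Fabp3, every fat-1 library lay below, as for 6.86% of all genes. The median log2 difference of the 10 was 0.60, and that of all tested genes was 0.01. Of the 10, 7 had a positive difference, as had 5984 of the 11698 genes tested. The members were chosen with earlier results of these data known, so none of these shares is a test of them as a group.

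**Figure D1:**
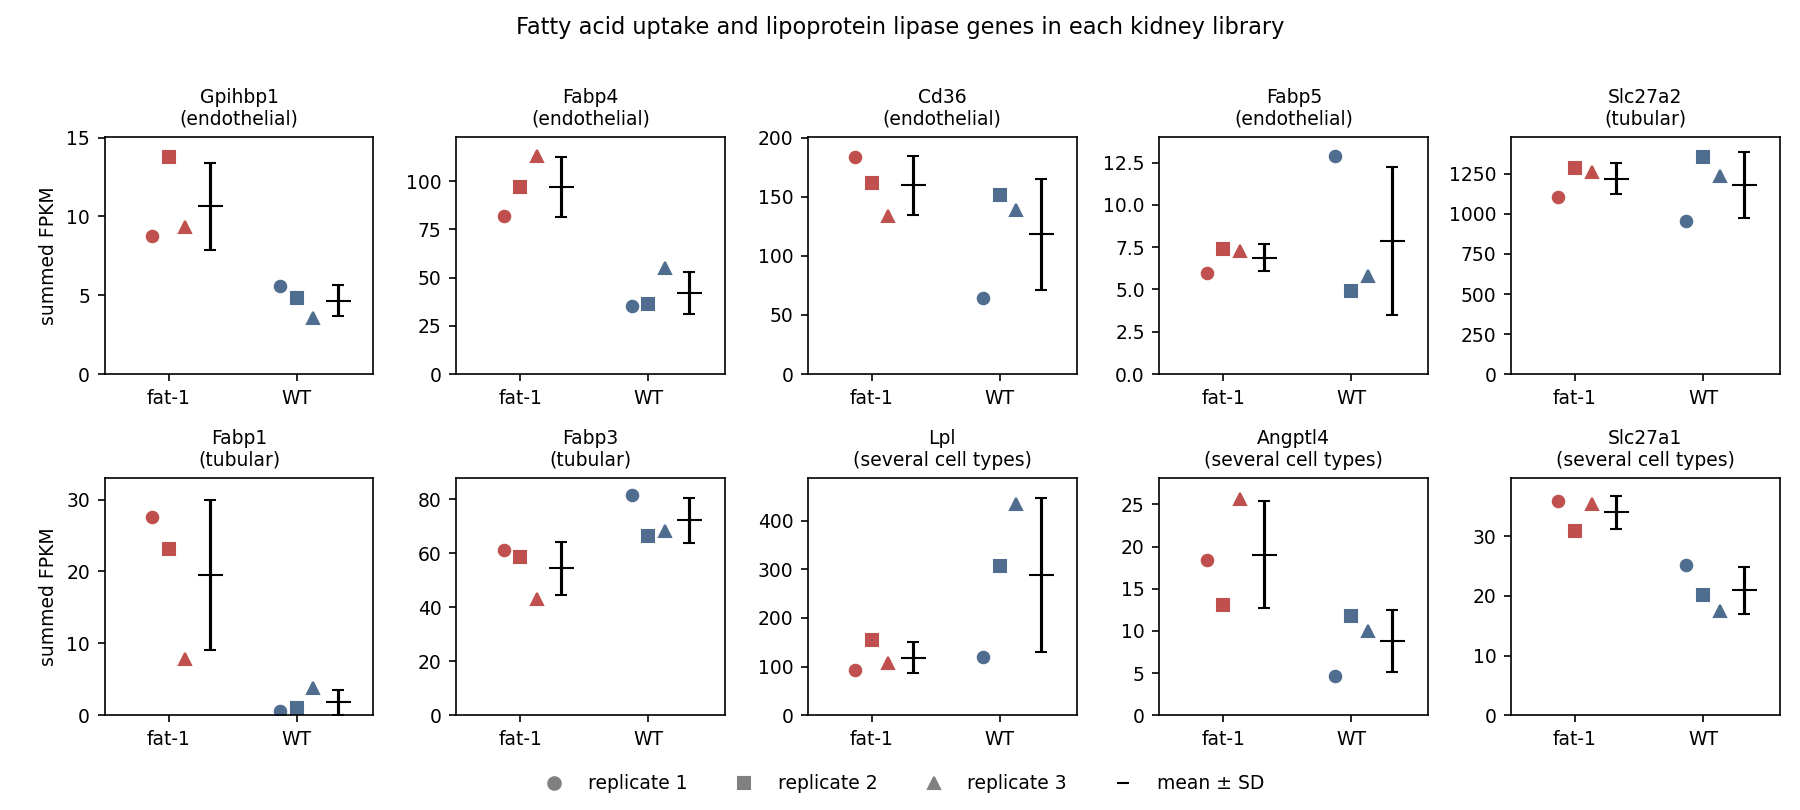
Summed FPKM of each of the 10 genes in each library, fat-1 left and WT right in each panel, with symbols for replicates and a bar for the mean ± SD (n = 3). The groups do not overlap for Gpihbp1, Fabp4, Fabp1, Angptl4, Slc27a1 and Fabp3, and they overlap for Cd36, Fabp5, Slc27a2 and Lpl.

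Levels spanned a wide range. Slc27a2 was the highest of the 10 in all 6 libraries and took 68.2% to 72.4% of their summed FPKM in fat-1 and 62.6% to 73.2% in WT. In fat-1 the order of means then ran Cd36, Lpl, Fabp4, Fabp3, Slc27a1, Fabp1, Angptl4, Gpihbp1 and Fabp5. In WT it ran Lpl, Cd36, Fabp3, Fabp4, Slc27a1, Angptl4, Fabp5, Gpihbp1 and Fabp1. Among neighbours in the fat-1 order, the ranges of Cd36 and Lpl, of Lpl and Fabp4, of Fabp1 and Angptl4, and of Angptl4 and Gpihbp1 overlapped. In WT, Lpl overlapped with Cd36 and Cd36 with Fabp3, and the ranges of neighbours overlapped from Angptl4 down to Fabp1.

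Among the endothelial members, Fabp4, the carrier of capillary endothelium and fat cells (chromosome 3, 10204088 to 10208576, mm10, 4 exons), measured 81.9, 96.8 and 113 FPKM in fat-1, against 35.2, 36.4 and 54.8 FPKM in WT. The lowest fat-1 library lay well clear of the highest WT library. Its means were 97.1 ± 15.5 and 42.1 ± 11.0 FPKM (SD, n = 3 each), 2.31-fold apart, with a log2 difference of 1.20 ± 0.21 (SE; 95% interval 0.71 to 1.70) and a limma adjusted p of 0.102. Of the 10 members it stood nearest to the threshold, at place 83 of 11698 by p.

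Gpihbp1, the endothelial anchor of the lipase (chromosome 15, 75596628 to 75599481), measured 8.79, 13.8 and 9.34 FPKM in fat-1, against 5.57, 4.83 and 3.58 FPKM in WT. All fat-1 libraries lay above all WT libraries, on a low level. The log2 difference was 1.03 ± 0.22 (SE; limma adjusted p = 0.142), with means 2.29-fold apart. Most of this signal, 81.2% ± 5.01 in fat-1 and 77.7% ± 8.15 in WT (SD, n = 3 each), came from 1 of its 3 listed transcripts.

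Cd36, the scavenger receptor and fatty acid translocase (chromosome 5, 17781690 to 17888801, minus strand), measured 184, 162 and 134 FPKM in fat-1, against 64.7, 151 and 139 FPKM in WT. WT replicate 1 was low and the other libraries overlapped between the groups. The log2 difference was 0.51 ± 0.33 (SE; limma adjusted p = 0.732) with all libraries and 0.13 without WT replicate 1, the library with high interferon-induced genes. Whether those genes have a part in it was not tested.

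The 6 listed Cd36 transcripts begin in 3 regions more than 10 kb apart, grouped this way after the values were seen. The downstream region, just past the promoter stretch printed above, gave 94.5, 98.9 and 106 FPKM in fat-1, against 43.4, 91.8 and 118 FPKM in WT. The middle region, 14.1 kb further upstream, gave 83.7, 51.7 and 20.2 FPKM in fat-1, against 16.8, 42.3 and 16.8 FPKM in WT. Within fat-1, replicate 1 was thus about level between these regions and replicate 3 was not, and the groups overlapped in both. The upstream region, 53.1 kb away, held 5.30% ± 1.98 of Cd36 FPKM in fat-1 and 6.98% ± 4.35 in WT (SD, n = 3 each). The middle region's share was 30.9% ± 15.3 in fat-1 and 22.0% ± 8.65 in WT, with an exact two-sided permutation p of 0.4, where 3 against 3 libraries cannot give a p under 0.1.

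**Figure D2:**
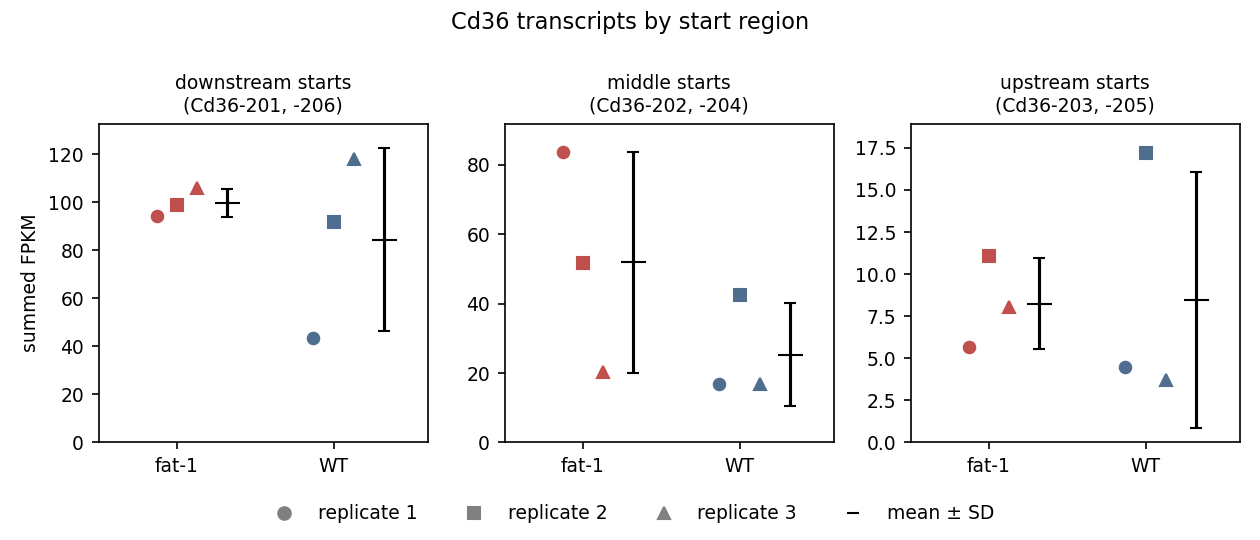
Summed FPKM of Cd36 transcripts by the region in which they begin, fat-1 left and WT right, with symbols for replicates and a bar for the mean ± SD (n = 3). In the middle region fat-1 runs from 20.2 to 83.7 FPKM and WT from 16.8 to 42.3 FPKM, and the groups overlap in all 3 regions.

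Fabp5, the epidermal-type carrier (chromosome 3, 10012548 to 10016607), measured 5.97, 7.38 and 7.27 FPKM in fat-1, against 12.9, 4.93 and 5.79 FPKM in WT. WT replicate 1 was the high library. Macrophage markers summed to 115 to 224 FPKM in fat-1, and in WT to 897 FPKM in that same replicate 1 and to 105 and 132 FPKM in the others. All 9 macrophage markers were listed. The log2 difference was -0.07 ± 0.32 (SE; limma adjusted p = 0.984), and it was 0.31 without WT replicate 1. The part of macrophage RNA in this value was not tested.

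Endothelial markers were also higher on average in fat-1. All 16 had a positive difference, 14 at an unadjusted limma p under 0.05. Among all 11698 genes tested, 5984 had a positive difference, and 5.8% were higher at that threshold. The marker list was chosen with earlier results of these data known, so its share is a description and not a test. The 16 markers summed to 229 to 319 FPKM in fat-1 and 125 to 152 FPKM in WT. Plvap, of the diaphragm of fenestrated capillaries, was the marker that passed over all genes, at 76.5 ± 12.6 FPKM in fat-1 and 31.4 ± 3.23 FPKM in WT (SD, n = 3 each; limma adjusted p = 0.0496). Other kidney markers were separate too: those of podocytes (6 genes) summed to 94.4 to 110 FPKM in fat-1 and 62.1 to 74.1 FPKM in WT, those of intercalated cells (7 genes) to 82.2 to 90.9 FPKM in fat-1 and 131 to 141 FPKM in WT, and those of the distal convoluted tubule (6 genes) to 202 to 310 FPKM in fat-1 and 357.2 to 528.3 FPKM in WT. None of the genes in these 3 lists passed the test. The part of these markers in the values of the members was not tested. In bulk tissue, fewer cells of a type and less RNA per cell cannot be told apart. The level of each member was therefore also taken relative to the mean log2(FPKM + 1) of the 16 markers, which was itself 0.82 higher in fat-1. Exact two-sided permutation tests over the 10 members cannot go below p = 0.1 each, and their smallest adjusted p was 0.25.

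On that relative scale Fabp4 stood at 2.94, 2.77 and 2.85 in fat-1, against 2.20, 2.39 and 2.80 in WT. The groups overlapped, since WT replicate 3 lay above fat-1 replicate 2, and the difference was 0.39 (exact permutation p = 0.2). Gpihbp1 differed by 0.22 (exact permutation p = 0.5) and Cd36 by -0.30 (exact permutation p = 0.7), and in each the groups overlapped. Lower in fat-1 than in WT, with no overlap, were Fabp5 by -0.88, Lpl by -1.94, Slc27a2 by -0.76 and Fabp3 by -1.23 (exact permutation p = 0.1 for each). Since the markers were 0.82 higher in fat-1, a gene with no difference of its own falls lower by that much here. Without the markers, Fabp5 and Slc27a2 differed by -0.07 and 0.06, so their separation on this scale restates that of the markers. Lpl differed by -1.12 without the markers, but its groups then overlapped, so its separation also appears only on this scale. Fabp1 differed by 2.06, Angptl4 by 0.26 and Slc27a1 by -0.13, and their groups overlapped (exact permutation p between 0.2 and 0.7).

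**Figure D3:**
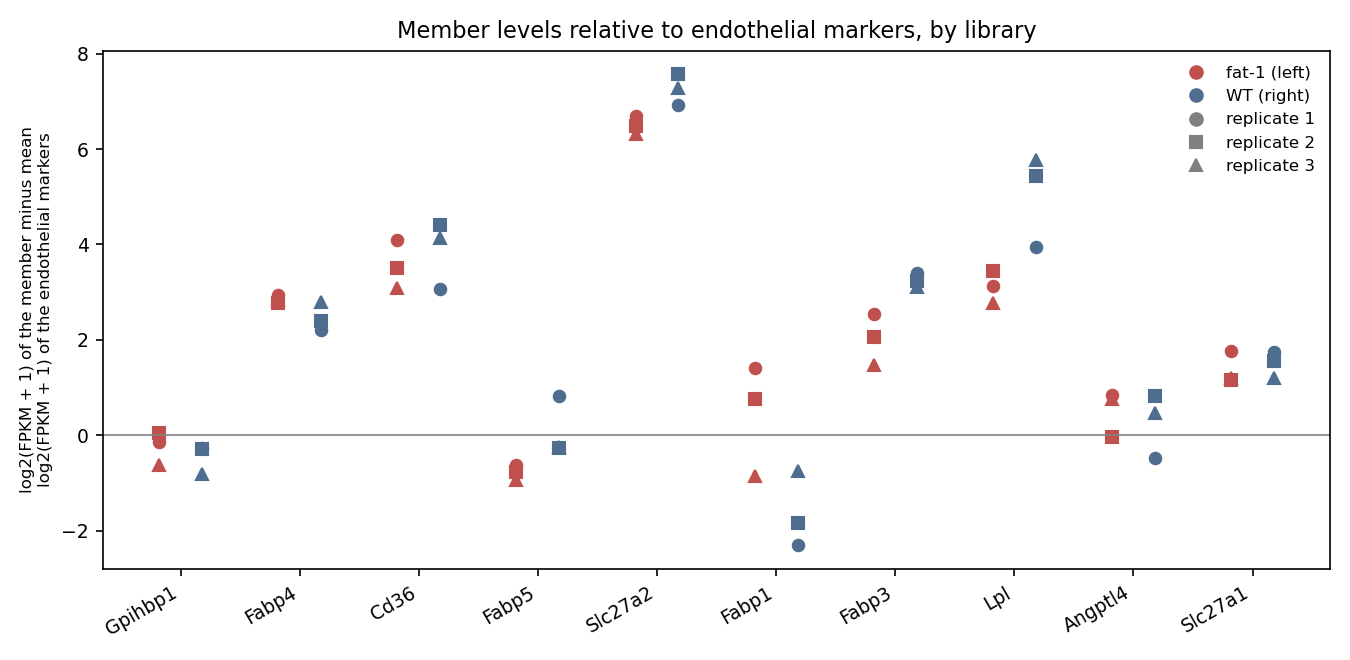
Level of each member minus the mean level of 16 endothelial markers, on the log2(FPKM + 1) scale, fat-1 left and WT right at each gene. Fabp4 and Gpihbp1 differ by 0.39 and 0.22 between the group means, while Lpl, Slc27a2, Fabp3 and Fabp5 lie lower in every fat-1 library than in every WT library. The marker mean was itself 0.82 higher in fat-1, which lowers every fat-1 value on this scale by that much.

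Among the tubular members, Slc27a2, the FATP2 transporter and very-long-chain acyl-CoA synthetase of the proximal tubule (chromosome 2, 126552407 to 126588243), measured 1108, 1286 and 1265 FPKM in fat-1, against 956, 1355 and 1235 FPKM in WT. The groups overlapped throughout. The log2 difference was 0.06 ± 0.17 (SE), and its 95% interval ran from -0.34 to 0.45, so that changes of that size in either direction remain possible (limma adjusted p = 0.974). Markers of the S3 segment of the proximal tubule, 10 of 10 listed, summed to 1367 to 1713 FPKM in fat-1 and 1164 to 2321 FPKM in WT. Cyp4b1 alone gave 794, 1079 and 859 FPKM of this in fat-1, and 604, 1069 and 979 FPKM in WT. The median log2 difference of the 10 markers was -0.70, with 7 negative and 3 positive, and 0 passed the test over all genes.

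Fabp1, the liver-type carrier that is also made in proximal tubule (chromosome 6, 71199827 to 71205023, 4 exons), had the largest difference of the 10. It measured 27.6, 23.1 and 7.79 FPKM in fat-1, against 0.590, 1.01 and 3.79 FPKM in WT. Every fat-1 library lay above every WT library, with fat-1 replicate 3 the nearest to WT. The means were 19.5 ± 10.4 and 1.79 ± 1.74 FPKM (SD, n = 3 each), 10.9-fold apart, and the log2 difference was 2.88 ± 0.57 (SE; 95% interval 1.52 to 4.24; limma adjusted p = 0.129). This is the gene whose promoter is printed above with a DR1 match.

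Fabp1 is strongly expressed in liver and intestine. Liver markers, 6 of 6 listed and chosen after the values were seen, summed to 6.51 to 11.6 FPKM in fat-1 and 1.91 to 2.80 FPKM in WT. Albumin, Alb, made up most of that sum, and it was highest in fat-1 replicate 3 at 8.02 FPKM, the fat-1 library with the lowest Fabp1. Serpina3k was at 0 in all 3 WT libraries and at 0.0972 to 0.658 FPKM in fat-1. The highest WT value of Fabp1 was in WT replicate 3, the library with intestinal markers, and without that library the log2 difference was 3.35. The part of liver or intestinal RNA in these values was not tested.

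Fabp3, the heart-type carrier (chromosome 4, 130308595 to 130315463), measured 61.3, 58.8 and 43.2 FPKM in fat-1, against 81.7, 66.6 and 68.4 FPKM in WT. It was the member whose fat-1 libraries all lay below WT. The gap was small, with means of 54.5 ± 9.82 and 72.2 ± 8.27 FPKM (SD, n = 3 each) and a log2 difference of -0.41 ± 0.17 (SE; limma adjusted p = 0.484). It was -0.26 without fat-1 replicate 3 and -0.17 without both that library and WT replicate 1. WT replicate 2, with cardiac markers, had 66.6 FPKM of Fabp3, close to the 68.4 FPKM of WT replicate 3. The part of cardiac RNA in the Fabp3 values was not tested.

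Set against each other, the endothelial members had a median log2 difference of 0.77 over 4 genes and the tubular members 0.06 over 3 genes. The means were in the other order, at 0.67 and 0.84, with Fabp1 by far the highest of the tubular members. The mean log2 level of the endothelial members minus that of the tubular members was -1.64 ± 0.38 in fat-1 and -1.46 ± 0.27 in WT (SD, n = 3 each), and the groups overlapped. Members differed among themselves within each group: Fabp4 and Gpihbp1 differed by over 1 on the log2 scale where Fabp5 differed by -0.07, and Fabp1 by 2.88 where Slc27a2 differed by 0.06. With Cd36 counted as tubular, the median was 1.03 for the endothelial and 0.29 for the tubular members.

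**Figure D4:**
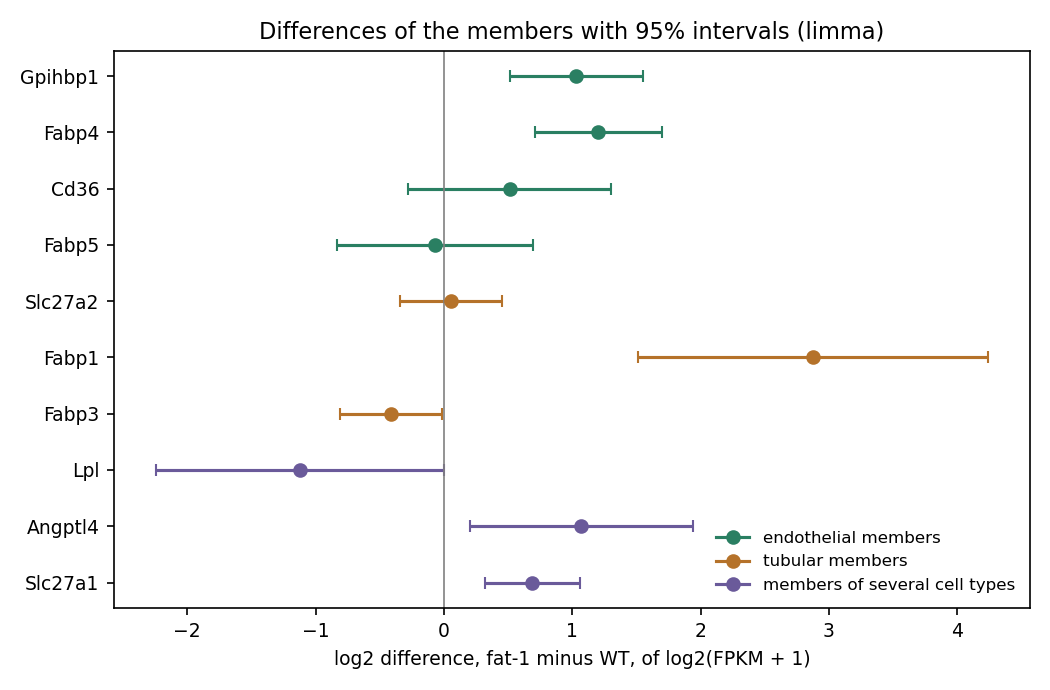
Log2 difference of each member, fat-1 minus WT, with its 95% interval from limma, coloured by the group of cell types. Intervals of Fabp4, Gpihbp1, Fabp1, Angptl4 and Slc27a1 lie above 0 and that of Fabp3 below 0, before any adjustment for the 11698 genes tested.

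The lipase gene itself, Lpl (chromosome 8, 68880491 to 68907448, with a listed transcript of 10 exons), measured 92.6, 154 and 107 FPKM in fat-1, against 120, 307 and 435 FPKM in WT. WT replicates 2 and 3 stood far above the other 4 libraries, and WT replicate 1 lay inside the fat-1 range. The means were 118 ± 32.1 and 287 ± 158 FPKM (SD, n = 3 each), and the log2 difference was -1.12 ± 0.47 (SE; 95% interval -2.25 to 0.00; limma adjusted p = 0.502). Without WT replicate 1 it was -1.66 (limma adjusted p = 0.0761), and without WT replicate 3 it was -0.73. Cardiac muscle markers summed to 93.0 FPKM in WT replicate 2 and to 2.41 FPKM in WT replicate 3, and their part in the Lpl values was not tested.

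Angptl4, the inhibitor of the lipase (chromosome 17, 33773750 to 33781830, minus strand), measured 18.4, 13.1 and 25.7 FPKM in fat-1, against 4.61, 11.7 and 9.98 FPKM in WT. The groups were separate, by a narrow margin between fat-1 replicate 2 and WT replicate 2. The log2 difference was 1.07 ± 0.36 (SE; limma adjusted p = 0.374), and it was 0.71 without WT replicate 1 and 0.48 without both that library and fat-1 replicate 3.

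Slc27a1, the FATP1 transporter of muscle and fat among other tissues (chromosome 8, 71568882 to 71587302), measured 35.9, 30.9 and 35.3 FPKM in fat-1, against 25.2, 20.1 and 17.4 FPKM in WT. Every fat-1 library lay above every WT library, with a log2 difference of 0.69 ± 0.16 (SE; limma adjusted p = 0.167) and means 1.63-fold apart. Its main transcript, 1 of 4 listed, held 84.0% ± 4.57 of it in fat-1 and 84.4% ± 2.60 in WT (SD, n = 3 each). Over 11 transcript shares of the members tested, the lowest exact permutation p was 0.1 and every adjusted p was 1.

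Adipocytes express Fabp4, Lpl and Cd36 at high levels. Of 13 adipocyte markers 6 were listed, with a summed level of 15.7 to 34.2 FPKM in fat-1 and 9.56 to 28.7 FPKM in WT. Most of that sum in every library came from Lipe and Car3. Plin4 and Cidea stayed at 1.35 FPKM or less, and Cfd at 4.93 FPKM or less. Adiponectin, Adipoq, the most specific of the listed markers, was at 0, 1.84 and 0.162 FPKM in fat-1 and at 0, 0 and 0.706 FPKM in WT. The part of adipocyte RNA in the values of the members was not tested. Lipe, hormone-sensitive lipase, which other tissues also express, measured 13.0 ± 1.26 FPKM in fat-1 and 5.97 ± 0.693 FPKM in WT (SD, n = 3 each; limma adjusted p = 0.0628).

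Other genes of lipoprotein handling gave no call. Of 24, 20 were tested and 0 passed. A positive difference was found in 16 and a negative one in 4, against 5984 and 5714 of all 11698 genes tested. The lists here and below were chosen with earlier results of these data known, so such shares are descriptions and not tests. The median was 0.23 (0.38 without fat-1 replicate 1, 0.37 without WT replicate 1 and 0.12 with the highest transcript of each gene). Mttp, which loads triglyceride onto apolipoprotein B, measured 14.3 ± 3.77 FPKM in fat-1 and 5.77 ± 1.06 FPKM in WT (SD, n = 3 each; limma adjusted p = 0.119). Angptl8, a secreted protein of the same family as Angptl4, averaged 2.85 ± 1.14 FPKM in fat-1 and 1.18 ± 0.459 FPKM in WT. Lmf1, which matures the lipase, differed by 0.21 ± 0.18 (SE), Vldlr, a receptor for lipoproteins rich in triglyceride, by 0.08 ± 0.14, and Lipa, the lysosomal lipase, by -0.04 ± 0.24 on the log2 scale.

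The remaining genes of uptake, binding and activation were mixed. Of 22, 15 were tested and 0 passed. A positive difference was found in 10 and a negative one in 5, against 5984 and 5714 of all 11698 genes tested. The median was 0.04. This median lay on both sides of 0 with a library left out, from -0.04 without fat-1 replicate 1 to 0.11 without WT replicate 1. Acsl1, which couples fatty acids to coenzyme A, measured 102, 111 and 89.4 FPKM in fat-1, against 63.5, 50.2 and 38.5 FPKM in WT, with separate groups and a log2 difference of 1.00 ± 0.20 (SE; limma adjusted p = 0.123). Acsl4, its relative with a preference for arachidonic acid, averaged 20.3 ± 0.844 FPKM in fat-1 and 14.0 ± 2.75 FPKM in WT. Mfsd2a, a transporter of lysophospholipids that carry omega-3 fatty acids, measured 0.0822, 0.451 and 2.73 FPKM in fat-1, against 2.43, 6.27 and 5.09 FPKM in WT (log2 difference -1.57 ± 0.51, SE; limma adjusted p = 0.355). Slc27a4, the FATP4 transporter, differed by 0.02 ± 0.12 (SE) and Got2, whose product is also known as a membrane fatty acid-binding protein, by 0.04 ± 0.14. Cav1, of caveolae, differed by 0.61 ± 0.51, with fat-1 replicate 3 at 9.25 FPKM and the other libraries at 2.26 FPKM or less.

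Regulators of endothelial fatty acid transport were low or gave no call. Of 14, 9 were tested and 0 passed. A positive difference was found in 8, against 5984 of all 11698 genes tested. The median was 0.41 (0.17 without WT replicate 2 and 0.18 with no filter). However, at least 2 of the 9, Flt1 and Nrp1, are themselves endothelial genes, and Flt1 is also among the 16 endothelial markers above. Flt1, a VEGF receptor, averaged 16.1 ± 4.41 FPKM in fat-1 and 7.56 ± 0.995 FPKM in WT (SD, n = 3 each; limma adjusted p = 0.1700). Nrp1, a coreceptor, averaged 22.9 ± 3.52 FPKM in fat-1 and 13.2 FPKM in WT (limma adjusted p = 0.118). Tcf15 and Pparg, transcription factors of this programme, stayed at 1.32 FPKM or less in every library and were not tested.

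Among PPAR target genes there were calls. Of 28 outside the members, 25 were tested, 2 rose and 0 fell, against 0.18% called among all 11698 genes tested. A positive difference was found in all 25, against 5984 of all genes tested, and the median was 1.07. This list was chosen with earlier results of these data known, so its share is a description and not a test. Among those that rose was Pdk4, a kinase that shuts off pyruvate dehydrogenase, which measured 57.1, 36.7 and 67.5 FPKM in fat-1, against 7.76, 7.20 and 6.91 FPKM in WT (limma adjusted p = 0.0284). The number of these genes that rose was 0 without fat-1 replicate 1, fat-1 replicate 3, WT replicate 2 or WT replicate 3, and 1 without fat-1 replicate 2. Among the receptors and partners, 10 of 12 were tested, 0 passed and the median was -0.12 (-0.20 to -0.05 with a library left out), with Ppara higher on average in fat-1 (15.6 ± 6.55 and 5.77 ± 2.66 FPKM) and Ppard lower (4.13 ± 0.361 and 7.16 ± 2.28 FPKM; fat-1 and WT, SD, n = 3 each). Among the members the log2 differences of Fabp1, Fabp4, Angptl4 and Gpihbp1 were 2.88, 1.20, 1.07 and 1.03. Those of Slc27a1, Cd36 and Slc27a2 were 0.69, 0.51 and 0.06. Fabp5, Fabp3 and Lpl were on the negative side, at -0.07, -0.41 and -1.12. The part of PPAR receptors in these values was not tested.

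**Figure D5:**
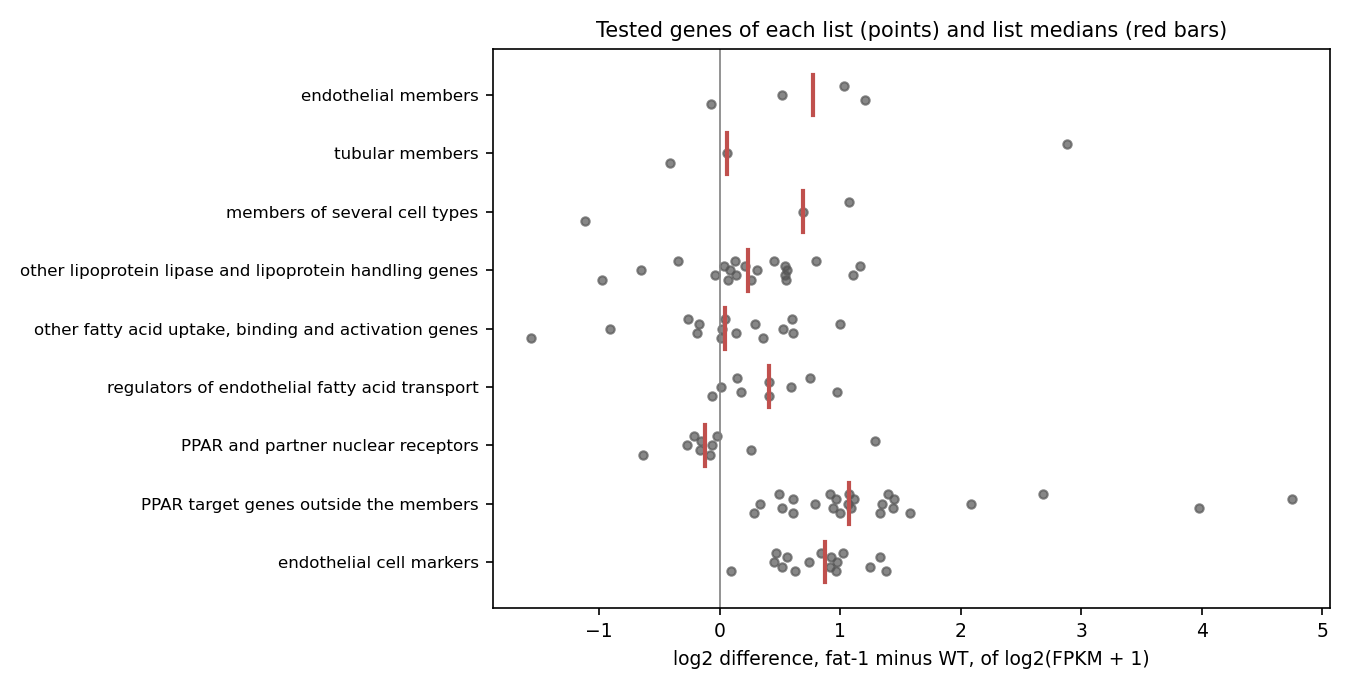
Log2 difference, fat-1 minus WT, of each tested gene of the lists (points) and the median of each list (bars). All 25 tested PPAR targets and all 16 endothelial markers lie above 0, as do 5984 of the 11698 genes tested. The lists were chosen with earlier results of these data known. The tubular members and those of several cell types lie on both sides of 0.

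Genes with the most similar profiles were sought among the 11698 tested genes by the root mean square distance between log2(FPKM + 1) values over the 6 libraries, each gene centred on its own mean. Nearest to Fabp4, whose own spread around its mean was 0.648, were Emcn and Plvap, both endothelial markers, and AU021092, at distances of 0.175, 0.189 and 0.176. Nearest to Gpihbp1 were Acsl1 at 0.152, Syngr2 at 0.157 and Peg3 at 0.158. Fabp1 had the most distant neighbours of the 10: Slc38a3, a glutamine transporter gene, was the nearest at 0.697, with Atp11b and Cyp4a32 behind it, where the spread of Fabp1 was 1.61. Nearest to Lpl were Smcp at 0.141 and, further off, Dph7 and Fmc1. Nearest to Angptl4 were Aspg, Plaur and Hsd17b14, to Slc27a1 Scarb2, Adgre5 and Gsto1, and to Cd36 Mgl2, Csad and Ywhaq. For Fabp3 they were Nfkb1, Hmgxb4 and Rhoc, for Fabp5 Dse, Ddit3 and Arhgap9, and for Slc27a2 Rnf113a1, Fam98c and Gemin4.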

How the data were processed

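The authors' deposited tables give FPKM per transcript for 6 kidney libraries, 1 table each, listing 27486 protein-coding transcripts that reach at least 0.5 FPKM in at least 1 library. The build, mm10, and the tools featureCounts 1.5.0-p3, HISAT2 2.0.5 and DESeq2 1.20.0 are named, with no role, in the submitters' processing notes. Which tool made the FPKM is not given in any source used here. Gene symbols turned into dates (21 genes in 4 tables) were restored, none of them a member. FPKM were summed per gene identifier. Coordinates and exons are those of GENCODE M21, on the same build, which had the span of the tables for 20 of 21 member transcripts, Angptl4's being the exception.

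A gene was tested if 3 or more libraries reached 1 FPKM, with limma 3.58.1 (R 4.3.3) on log2(FPKM + 1) with variance trend, robust, no covariates or rescaling, fat-1 against WT, p-values adjusted over all tested genes at 0.05. The fit was first tested on simulated data with normal noise and changes built into genes that were not low. It found 55.7% of the 2-fold and 88.7% of the 4-fold changes, so a 2-fold change can be missed at this threshold. Single values used exact permutation tests. Sums and figures came from Python 3.11.15 (matplotlib 3.10.9, pandas 2.3.3).

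The depth is unknown: FPKM times length lay within 0.05 of whole multiples of the best step for 12.2% to 15.2% of low values, where 10% is even spread, so whole reads were not recovered. In no pair of libraries was a value above 0 identical (0 genes) and correlated at 0.942 to 0.976 within groups and 0.946 to 0.970 across, so all were used. Replicate numbers follow accession order and only name libraries, as the labels number the WT libraries and the fat-1 libraries in unlike ways. Members, lists and the naming rule (all members, up to 4 genes of smallest p in each list, chosen context genes, 3 nearest profiles) were chosen with earlier results of these data known. A few genes under this rule are left unreported. Meox2 and Plin1 were looked for by symbol but were not among the listed genes, so they have no values here.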

Additional observations from a re-analysis of the deposited data

How the results depend on the processing

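The number of members called was 0 under all 12 other settings, with any replicate left out, and with the pair WT replicate 1 and fat-1 replicate 3 left out together, a choice made after seeing the data. Directions of all 10 members were kept under the 12 settings. The smallest adjusted p of any member was 0.0678, for Fabp4 with values rescaled to the same total per library. The log2 difference of Fabp5 lay between -0.31 and 0.31 and that of Slc27a2 between -0.088 and 0.16 with each replicate left out, and they were 0.27 and -0.12 without both libraries. Over all genes the count called was 21. It was 45 when rescaled to that total (36 higher and 9 lower), 33 without mitochondrially encoded genes in the scale, 11 with upper quartile scaling, 8 with median of ratios scaling (4 higher and 4 lower), 39 with quantile normalisation (25 higher and 14 lower), 4 with no filter, 3 with no intensity trend, 3 with the highest transcript of each gene, 0 without both libraries (limma throughout) and 0 to 25 with each replicate left out. The cause was not tested. The median of endothelial members was 0.67 to 0.90 with each replicate left out, 0.62 without both libraries, 1.12 in narrow groups of Fabp4 and Gpihbp1 against Slc27a2 and Fabp1, and 1.03 with Cd36 counted as tubular. That of tubular members was -0.088 to 0.16, -0.12, 1.47 and 0.29 in the same order, since these groups hold few genes.

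Relative to endothelial markers, with each replicate left out, Angptl4 differed by -0.12 to 0.54, Cd36 by -0.70 to -0.03, Gpihbp1 by 0.04 to 0.41, Slc27a1 by -0.33 to -0.0049 and Fabp4 by 0.26 to 0.56. Differences in transcript share also turned in sign, in percentage points from -2.62 to 1.08 and -1.13 to 6.27 for a minor Cd36 and the main Gpihbp1 transcript, from -0.890 to 1.82 for another of Gpihbp1, and from -2.73 to 1.85, -1.60 to 2.09 and -1.04 to 1.01 for 3 of Slc27a1. The count of PPAR targets called was 10 when rescaled, 7 without mitochondrially encoded genes, 6 with quantile normalisation, 4 with a filter of 3 FPKM, 1 with median of ratios scaling, no filter or no trend, 0 with the highest transcript or without both libraries, and 0 to 3 with each replicate left out. No paired analysis was possible because replicate numbers were given in accession order and the labels tie no fat-1 library to a WT library. The unknown depth and 3 libraries a group limit what can be told for the low genes Gpihbp1, Fabp5 and Fabp1.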
